A study of Mus musculus with 8 samples.

Results

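The genes described here are the precursors of neuropeptides and peptide hormones, chosen by name: a list of 37 gene symbols was looked up in the gene table, and each was found once among 45706 genes. The rule uses names alone, though the list was drawn up with earlier results of these data known. The list holds the feeding peptides of the arcuate nucleus (Agrp, Npy, Pomc, Cartpt), peptides of the lateral hypothalamus (Pmch, Hcrt), hormones and releasing hormones that act through the pituitary (Avp, Oxt, Trh, Crh, Ghrh, Gnrh1), opioid and tachykinin precursors, and peptides of the suprachiasmatic nucleus and other sites. Every level below is the RNA of the precursor, not the peptide.

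The RNA came from a tissue block around the arcuate nucleus of the mouse hypothalamus and was split by translating ribosome affinity purification (TRAP), in which antibodies to GFP pull down ribosomes that carry the GFP-tagged ribosomal protein RpL10a. The pulled-down RNA is the immunoprecipitate (IP) and the RNA of the homogenate is the input. There were 4 IP and 4 input libraries, each from 3 pooled mice of both sexes, 11 to 12 weeks old and killed in the random-fed state. All 8 libraries carry the same genotype, Mff fl/fl; AgRP-IRES-Cre tg/wt; RpL10a-GFP fl/wt. Cre made from the Agrp locus both deletes Mff, a gene for a mitochondrial fission factor, and switches on the tagged ribosomal protein, so both are limited to cells in which that locus is or was active. Control-genotype libraries are not analysed here, so no value below is an effect of the deletion, and a difference between IP and input is a difference between ribosome-bound RNA of tagged cells and RNA of the whole block.

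Neuropeptides are made as longer precursors that enter the secretory pathway, are cut at basic residues by prohormone convertases, trimmed and often amidated, and are stored in dense-core vesicles until release. Most hypothalamic neurons are known by the peptide they make. AgRP neurons make Agrp, an antagonist of melanocortin receptors, together with Npy, which drives feeding through Y receptors. Their neighbours, the Pomc neurons, make the precursor of alpha-MSH, which acts on the same melanocortin receptors in the opposite direction.

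Libraries held 39.9 to 74.6 M (mega) estimated counts. Levels are given in CPM, the usual unit of counts relative to the library total, after scaling of the libraries by TMM, a method that assumes most genes do not differ. The targeted gene Mff was lower in IP, at 112 to 132 CPM in input and 64.0 to 71.2 CPM in IP, which does not check the deletion because there is no control genotype. All 11 AgRP-neuron markers other than peptides were higher in IP, with a summed level of 243 to 273 CPM in input and 2605 to 3208 CPM in IP. This list was drawn up with results of these data known and is no independent check of the label. All 14 oligodendrocyte markers, 12 of 13 astrocyte markers and all 12 markers of other hypothalamic neurons were lower. Fewer were called lower among microglia (8 of 10), tanycyte and ependymal (5 of 8), vascular (3 of 10) and tested pituitary markers (2 of 4). No marker in these lists was called higher. None of these markers was at 0 in all IP libraries: the astrocyte markers summed to 844 to 1139 CPM in IP and those of other hypothalamic neurons to 102 to 160 CPM. IP replicate 3 stood apart from the other IP libraries. A chi-square of the counts, divided by its degrees of freedom, came to 234 to 350 for pairs with this library and 49.7 to 64.0 for the other IP pairs. Results that rest on this library are given with and without it.

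Of the 37 precursor genes, 33 had enough counts to be tested. IP and input were compared by the edgeR quasi-likelihood test, with p-values adjusted over 17000 genes by the Benjamini-Hochberg method and a threshold of 0.05. Agrp, Npy, Sst, Nmb and Nucb2 were higher in IP, 18 genes were lower and 10 did not pass the test. Over all tested genes 24.5% were called higher and 20.9% lower, 45.4% in all. The share called lower was therefore 54.5% among the tested precursors and the share called higher was 15.2%. Their median log2 fold change of IP against input was -1.19, beside -0.01 over all tested genes. All 4 IP values lay above all 4 input values for 5 of the tested precursors and below them for 19, where 24.1% and 24.0% of all tested genes did so. Every lower level below is lower relative to RNA of the whole block. How much of a gene's IP level came from tagged cells and how much from cells without the tag was not tested. Without IP replicate 3 the counts were 5 higher and 20 lower, Nms and Pnoc being added. Calls over all genes rose as well: 4230 of 17401 were then lower, beside 3545 of 17000 in the main fit.

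The pair that defines the tagged neurons held the largest differences among the tested precursors. Agrp lies on chromosome 8 of GRCm38 at 105566698 to 105568298, minus strand, in its shortest annotated transcript. It was measured at 2.64, 3.34, 3.05 and 4.38 CPM in input replicates 1 to 4 and at 803, 801, 683 and 1083 CPM in IP replicates 1 to 4. The means were 3.35 ± 0.741 and 843 ± 170 CPM (SD, n = 4 each), a 251-fold difference (log2 7.98 ± 0.20 SE, adjusted p = 5.51e-10 by edgeR). With offsets for GC content and length, in which each library is corrected for both, the log2 difference was 7.36. The span of the longest annotated Agrp transcript overlaps several genes, among them Ctcf, a gene for a chromatin architecture protein. Ctcf itself did not pass the test (-0.13 ± 0.08, adjusted p = 0.209).

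Npy (chromosome 6, 49822710 to 49829507, plus strand) was the most abundant precursor of the IP libraries. Input replicates held 13.3, 14.9, 13.0 and 13.8 CPM and IP replicates 1924, 1773, 1509 and 2566 CPM. Its mean was 141-fold higher in IP (1943 ± 450 against 13.8 ± 0.874 CPM, SD, n = 4; log2 7.14 ± 0.18 SE, adjusted p = 4.44e-10 by edgeR; 6.38 with GC and length offsets). For both genes IP replicate 3 was the lowest IP library and replicate 4 the highest, and the fractions lay far apart.

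**Figure D1:**
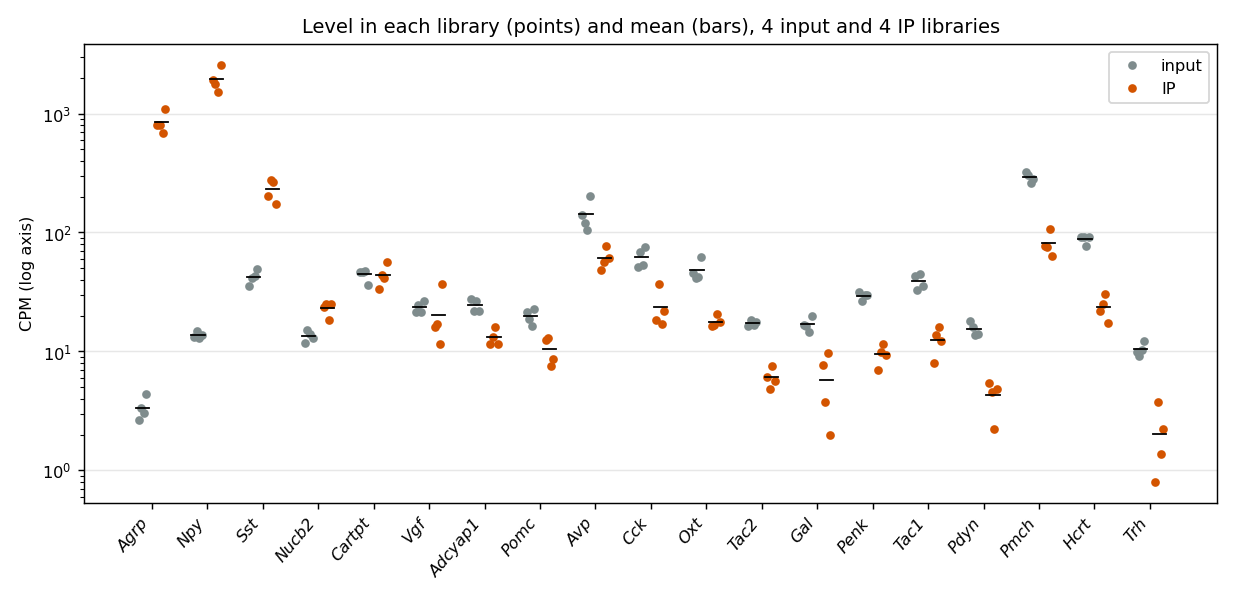
CPM (log axis) of the 19 precursor genes whose mean reached 10 CPM in either fraction, for each input and IP library (points) with the mean of each fraction (bars). Agrp, Npy, Sst and Nucb2 lie higher in IP, Cartpt and Vgf overlap between fractions, and the rest lie lower in IP.

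Sst, the precursor of somatostatin, a peptide that inhibits hormone and transmitter release, was the third gene far above input. It held 35.2, 41.1, 43.2 and 49.3 CPM in input and 204, 276, 267 and 173 CPM in IP. The fractions did not overlap, and the mean was 5.45-fold higher in IP (log2 2.45 ± 0.16 SE, adjusted p = 3.59e-07; 1.85 with GC and length offsets). Its order over the IP libraries differed from that of Agrp and Npy: replicate 4, highest for both of those, was the lowest for Sst. Cort, the precursor of the related peptide cortistatin, was not tested. It had 10 counts in all of input and 16 in IP, and all 16 were in IP replicate 2.

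The remaining genes called higher differed by less. Nucb2, which encodes nucleobindin-2, the precursor of nesfatin-1, held 11.8, 15.2, 14.1 and 12.9 CPM in input and 23.8, 25.0, 18.5 and 25.3 CPM in IP, a 1.71-fold difference (log2 0.78 ± 0.14 SE, adjusted p = 0.000781). Nmb, the precursor of the bombesin-like peptide neuromedin B, held 0.710, 0.850, 1.26 and 1.09 CPM in input and 2.12, 3.08, 1.76 and 3.95 CPM in IP, 2.79-fold (1.48 ± 0.40, adjusted p = 0.0105). Neither gene's fractions overlapped. The Nmb call was lost with offsets for GC content and length (0.85, adjusted p = 0.0919). Nmb also overlaps Sec11a, a signal peptidase subunit on the same strand that was itself higher in IP (1.00 ± 0.14, adjusted p = 0.00016), so their reads may not be separable.

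Promoter sequences from RefSeq (GRCm38.p6) were available for 29 of the 37 genes, in 32 windows of 250 bases before the annotated start. They were searched for TATAAA on the gene's strand, as the core of a TATA box, and for TGACGTCA on both strands, the full cAMP response element to which CREB binds. TATAAA occurred in 7 of the 32 windows (Adcyap1, Ghrh, Hcrt, Npvf, Pmch, Pomc and Vip), and 7.59% of 32851 windows of all genes held it. TGACGTCA occurred in 3 (Cartpt, Sst and Ucn), and 1.55% of all windows held it. A CCAAT match, either strand, was in 11 windows and a GGGCGG match in 9, beside 33.8% and 32.7% of all windows. Npy is shown because it had the highest level in IP, and Pmch and Hcrt because they were among the most abundant precursors of input. Avp, more abundant in input than Hcrt, is not shown, and its window held no TATAAA. Capitals mark TATAAA, 27 bases before the start in Pmch and 33 in Hcrt, counted from the motif's first base.
Npy (chr6:49822460-49822709, plus strand): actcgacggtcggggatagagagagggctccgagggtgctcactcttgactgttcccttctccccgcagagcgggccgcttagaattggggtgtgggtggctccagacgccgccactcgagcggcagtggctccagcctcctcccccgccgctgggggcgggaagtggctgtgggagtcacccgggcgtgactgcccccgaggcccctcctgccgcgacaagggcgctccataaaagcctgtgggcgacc
Pmch (chr10:88090822-88091071, plus strand): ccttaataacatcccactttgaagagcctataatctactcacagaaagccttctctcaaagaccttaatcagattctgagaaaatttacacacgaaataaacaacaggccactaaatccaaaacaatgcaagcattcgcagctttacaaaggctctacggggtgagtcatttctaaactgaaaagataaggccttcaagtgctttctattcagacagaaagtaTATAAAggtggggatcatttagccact
Hcrt (chr11:100762932-100763181, minus strand): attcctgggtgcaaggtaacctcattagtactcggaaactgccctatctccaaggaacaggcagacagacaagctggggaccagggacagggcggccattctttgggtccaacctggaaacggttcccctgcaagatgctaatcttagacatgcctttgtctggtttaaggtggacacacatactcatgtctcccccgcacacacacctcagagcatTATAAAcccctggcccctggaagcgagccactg
The 28 bases around the TGACGTCA of Sst, Cartpt and Ucn are set side by side, with the motif in capitals, because these genes share it and differ in where they stood in IP. It begins 48, 112 and 44 bases before the RefSeq start of each. A match describes letters and is not a measured site.
Sst (chr16:23890875-23890902, minus strand): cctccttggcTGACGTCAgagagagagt
Cartpt (chr13:99900778-99900805, minus strand): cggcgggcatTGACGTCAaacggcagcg
Ucn (chr5:31138922-31138949, minus strand): tgttcttcgcTGACGTCAgtcggagctg

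The precursors known from the opposing Pomc neurons were not called higher in IP. Pomc held 21.3, 18.9, 16.3 and 22.9 CPM in input and 12.6, 12.9, 7.57 and 8.72 CPM in IP, without overlap, and was lower in IP (-0.93 ± 0.19, adjusted p = 0.00228 by edgeR). With GC and length offsets this was -1.41. Cartpt, the precursor of the anorexigenic peptide CART, was at 46.9, 47.0, 47.7 and 36.5 CPM in input and 33.6, 43.9, 41.6 and 57.0 CPM in IP. The fractions overlapped, and the log2 fold change of -0.02 ± 0.15 (adjusted p = 0.936) changed sign to 0.08 when library totals alone set the scale. With GC and length offsets the Cartpt value was -0.39 (adjusted p = 0.0556 by edgeR), just short of the threshold.

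Vgf and Pnoc also missed the threshold. Vgf, a granin-like precursor of many neurons, held 21.4, 24.4, 21.5 and 26.4 CPM in input and 15.9, 17.1, 11.6 and 36.8 CPM in IP (-0.21 ± 0.29, adjusted p = 0.593). Its IP replicate 4 was above every input library and the other 3 below; without it Vgf was lower (-0.65, adjusted p = 0.00725). Pnoc, the precursor of nociceptin, held 5.72, 6.55, 6.17 and 7.01 CPM in input and 5.18, 4.08, 4.98 and 3.82 CPM in IP. Its fractions did not overlap, but it did not pass the test (-0.49 ± 0.20, adjusted p = 0.0603), and it was called lower with DESeq2 (adjusted p = 0.0251), with upper quartile factors (0.0218), with RLE factors (0.0490), with GC and length offsets (0.0280) and without IP replicate 1 (0.0372) or 3 (0.0360).

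Precursors of the lateral hypothalamus were abundant in input and lower in IP. Pmch, the precursor of melanin-concentrating hormone, which promotes feeding and sleep, held 326, 307, 263 and 284 CPM in input and 77.5, 74.9, 108 and 63.9 CPM in IP. Its log2 fold change was -1.86 ± 0.14 (adjusted p = 1.42e-06). Parpbp, which overlaps Pmch on the opposite strand, was also lower (-2.06 ± 0.48, adjusted p = 0.00446), and whether counting used strand is not stated. Hcrt, the precursor of the wake-promoting orexins, held 90.9, 91.8, 77.1 and 91.0 CPM in input and 22.1, 24.9, 30.2 and 17.4 CPM in IP (-1.89 ± 0.15, adjusted p = 1.74e-06; -2.66 with GC and length offsets). Both genes were highest in IP replicate 3 and lowest in IP replicate 4 among the IP libraries, and for neither did the fractions overlap.

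The magnocellular hormones lie 3565 bases apart on chromosome 2, on opposite strands, and stood at different levels. Avp, the precursor of vasopressin, the antidiuretic hormone, held 141, 121, 106 and 202 CPM in input and 48.1, 56.8, 77.2 and 61.5 CPM in IP (-1.23 ± 0.20, adjusted p = 0.000357). Oxt, the precursor of oxytocin, which acts in birth and lactation, held 45.8, 41.6, 42.4 and 62.2 CPM in input and 16.2, 16.6, 20.6 and 17.7 CPM in IP (-1.43 ± 0.14, adjusted p = 1.08e-05). In both genes input replicate 4 was the highest library, and all IP libraries lay below all input libraries. GC and length offsets gave -2.13 for Avp and -2.25 for Oxt.

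All tested opioid and tachykinin precursors except Pnoc were called lower, as was Gal. Penk, the enkephalin precursor, held 31.4, 26.5, 29.7 and 29.7 CPM in input and 6.94, 9.93, 11.6 and 9.28 CPM in IP (-1.63 ± 0.16, adjusted p = 7.43e-06). An annotated non-coding transcript overlaps Penk on the opposite strand. Pdyn, the dynorphin precursor, held 18.0, 16.0, 13.9 and 14.0 CPM in input and 5.41, 4.59, 2.22 and 4.85 CPM in IP (-1.86 ± 0.25, adjusted p = 0.000115). Tac1, the precursor of substance P, held 43.0, 32.8, 45.0 and 35.4 CPM in input and 7.98, 13.9, 16.0 and 12.3 CPM in IP (-1.64 ± 0.20, adjusted p = 4.39e-05). In none of these genes did the fractions overlap.

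Tac2, the neurokinin B precursor that marks arcuate KNDy neurons together with Pdyn and Kiss1, held 16.4, 18.5, 16.6 and 17.6 CPM in input and 6.09, 4.88, 7.56 and 5.66 CPM in IP (-1.51 ± 0.16, adjusted p = 1.65e-05). Gal, the galanin precursor, held 16.8, 16.4, 14.7 and 19.7 CPM in input and 7.63, 3.78, 9.67 and 1.99 CPM in IP (-1.54 ± 0.38, adjusted p = 0.00669). The fractions of both genes were apart, and Gal spread more widely over the IP libraries than Tac2. Kiss1, the kisspeptin precursor, was at 0.163 to 0.324 CPM in input and from 0 to 0.195 CPM in IP (-1.16 ± 0.96, adjusted p = 0.355), with 55 and 23 counts in all.

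Of the hypophysiotropic precursors other than Avp and Oxt, Trh, Ghrh and Crh were called lower. Trh, which drives the thyroid axis, held 9.81, 9.20, 10.3 and 12.2 CPM in input and 0.796, 3.72, 1.37 and 2.24 CPM in IP (-2.36 ± 0.40, adjusted p = 0.000527). Ghrh, which drives growth hormone release and is made by arcuate neurons, held 8.52, 5.93, 6.03 and 8.91 CPM in input and 1.75, 1.91, 4.99 and 4.45 CPM in IP (-1.17 ± 0.36, adjusted p = 0.0204). The Ghrh call was lost without input replicate 1 (adjusted p = 0.0607) or 4 (0.0664), and GC and length offsets gave -1.95. Crh, which drives the stress axis, was scarce, at 0.819, 0.418, 0.372 and 0.745 CPM in input and 0.124, 0, 0.130 and 0.0754 CPM in IP (-2.79 ± 0.88, adjusted p = 0.0235). Its 19 IP counts set its precision, and its call was lost without input replicate 1 (0.0765) or 4 (0.0722). With voom quality weights its value was -3.57. For all 3 genes the IP libraries lay below the input libraries.

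The urocortins and Gnrh1 did not pass the test and overlapped between fractions. Ucn was at 0.209 to 0.675 CPM in input and 0 to 0.531 CPM in IP (-1.19 ± 1.04, adjusted p = 0.378). IP replicate 1 held 30 of its 41 IP counts, and without that library the value was -2.53 and still did not pass the test. Ucn3 was at 1.40 to 2.37 and 0.151 to 2.72 CPM (-0.89 ± 0.76, adjusted p = 0.376), and IP replicate 1 alone set its upper end: without that library Ucn3 was lower (-2.20, adjusted p = 0.0138). Gnrh1, the precursor of the hormone that drives the gonadal axis, was at 0.809 to 1.70 and 0.189 to 1.01 CPM (-1.16 ± 0.61, adjusted p = 0.148), and was called lower with GC and length offsets (-1.92, adjusted p = 0.0213). Npvf, the precursor of RFamide-related peptides that inhibit the same axis, held 3.99, 2.59, 3.21 and 3.96 CPM in input and 0.407, 0.416, 2.80 and 0.754 CPM in IP (-1.64 ± 0.60, adjusted p = 0.0446). Its IP replicate 3 lay within the input range, and without it the difference was -2.71. The Npvf call was lost without each of the other 7 libraries in turn (adjusted p = 0.0669 to 0.105) and with library totals alone (-1.51, adjusted p = 0.0628).

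Among peptides known from the suprachiasmatic nucleus and other sites, Cck, Nts, Adcyap1 and Vip were lower. Cck, the cholecystokinin precursor, held 50.9, 68.5, 53.7 and 75.7 CPM in input and 18.2, 36.7, 17.1 and 22.0 CPM in IP (-1.40 ± 0.23, adjusted p = 0.000456). Nts, the neurotensin precursor, held 6.39, 7.61, 6.98 and 8.50 CPM in input and 1.29, 2.68, 1.33 and 1.73 CPM in IP (-2.07 ± 0.28, adjusted p = 0.000116). Adcyap1, the precursor of PACAP, a peptide that excites AgRP neurons, held 27.4, 22.0, 26.7 and 21.7 CPM in input and 11.6, 13.1, 16.1 and 11.6 CPM in IP (-0.90 ± 0.14, adjusted p = 0.0004). In these genes all IP libraries lay below all input libraries.

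Vip, a peptide of the circadian clock neurons, was scarce and lower in IP. It held 1.18, 1.13, 1.33 and 2.47 CPM in input and 0.106, 0.0756, 0.346 and 0.302 CPM in IP (-2.87 ± 0.66, adjusted p = 0.00403), without overlap. Grp (-0.65 ± 0.56, adjusted p = 0.373) and Prok2 (-0.85 ± 0.86, adjusted p = 0.454) did not pass the test and overlapped between fractions. Prok2 had 71 of its 101 IP counts in IP replicate 1 and was lower without it (-2.24, adjusted p = 0.0296). Nms, at 0.364 to 0.674 CPM in input, had no count in IP replicates 1, 2 and 4 and 16 counts in replicate 3, and did not pass the test (adjusted p = 0.0631). It was called lower with limma-voom (0.00423), with GC and length offsets (0.0437) and without IP replicate 3 (0.000674).

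Nmu, Galp and Npff had too few counts for a test, as did Cort. Nmu had 43 counts in input and 4 in IP, Galp 9 and 5, and Npff 29 and 5. The 5 IP counts of Galp and the 5 of Npff were all in IP replicate 2, as were those of Cort. A count of 0 in a library allows up to 0.0403 to 0.0754 CPM, the level of 3 counts in the deepest and the shallowest library, counting error only.

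A lower CPM in IP does not say how a gene compares with RNA of cells that carry no tag, so each precursor was also set against glial RNA. The same edgeR test was run with the libraries scaled by the median ratio of 27 astrocyte and oligodendrocyte markers, cells in which the Agrp locus is not known to be active. On this scale 73.4% of all tested genes were above glial RNA and 1.75% below, with a median log2 difference of 1.67. Of the 33 tested precursors 11 were above (33.3%), none was below and 22 did not pass the test, with a median of 0.46. At an unadjusted p under 0.05 none was below either, the smallest p of a negative difference being 0.0943, for Vip. Without IP replicate 2 Trh was called below (-1.20, adjusted p = 0.00759), and without IP replicate 3 Nms was (adjusted p = 0.00116).

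**Figure D2:**
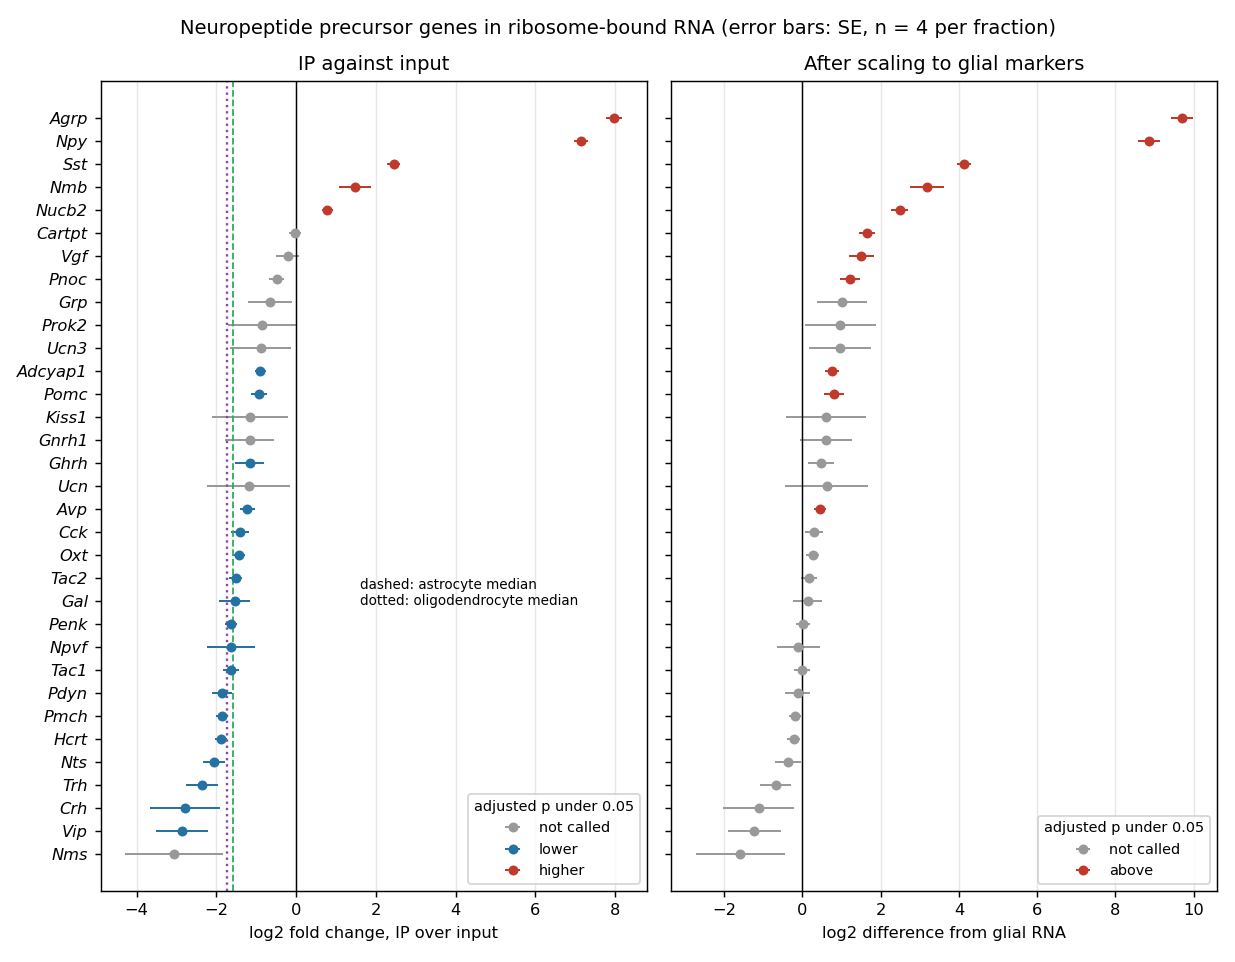
Log2 fold change of IP against input (left) and log2 difference against glial RNA (right) of the 33 tested precursor genes, with SE bars (n = 4 libraries per fraction) and colours for the call; vertical lines on the left mark the astrocyte (dashed, -1.58) and oligodendrocyte (dotted, -1.74) marker medians. On the left 5 genes are higher and 18 lower, while on the right 11 are above and none is below.

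The genes above glial RNA fell into 3 sets. The 5 genes called higher in IP led, with log2 differences of 9.69 ± 0.28 for Agrp, 8.85 ± 0.28 for Npy, 4.12 ± 0.18 for Sst, 3.18 ± 0.44 for Nmb and 2.48 ± 0.22 for Nucb2. Cartpt (1.65 ± 0.20, adjusted p = 2.03e-06), Vgf (1.51 ± 0.31, adjusted p = 0.000384) and Pnoc (1.21 ± 0.26, adjusted p = 0.000597), which were not called in the plain comparison, followed. Pomc (0.80 ± 0.25, adjusted p = 0.00974), Adcyap1 (0.76 ± 0.19, adjusted p = 0.00204) and Avp (0.45 ± 0.16, adjusted p = 0.0179) were lower in IP than in input and yet above glial RNA. The Avp call was lost without input replicate 2 (0.39, adjusted p = 0.0672) or 3 (0.39, adjusted p = 0.0600). These last 6 genes all lay below the all-gene median of 1.67. The fits against glial RNA were run without GC and length offsets. In the plain comparison those offsets moved Avp from -1.23 to -2.13, Pomc from -0.93 to -1.41 and Adcyap1 from -0.90 to -0.77. Their effect on the difference from glial RNA was not tested.

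The other 15 genes called lower in IP did not pass the test against glial RNA, which does not show that they equal it. The best measured were Pmch (-0.20 ± 0.16, adjusted p = 0.263), Hcrt (-0.22 ± 0.16, adjusted p = 0.228), Oxt (0.26 ± 0.16, adjusted p = 0.159), Penk (0.02 ± 0.18, adjusted p = 0.940) and Tac1 (-0.01 ± 0.20, adjusted p = 0.965). Penk and Tac1 lay so near 0 that their sign changed with the marker set. Cck (0.30 ± 0.23, adjusted p = 0.258) was called above without IP replicate 3 (0.49, adjusted p = 0.0271).

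The make-up of the precursor RNA differed between the fractions. The 37 genes summed to 889 to 1070 CPM in input and to 3263, 3228, 2873 and 4198 CPM in IP replicates 1 to 4. Agrp and Npy together made up 1.58% to 1.89% of that sum in input and 83.6%, 79.8%, 76.3% and 86.9% in IP, with means of 1.74% and 81.6%. Sst added 3.51% to 4.86% in input and 6.26%, 8.56%, 9.29% and 4.12% in IP. The other 34 genes summed to 830 to 1003 CPM in input and to 332 to 415 CPM in IP.

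**Figure D3:**
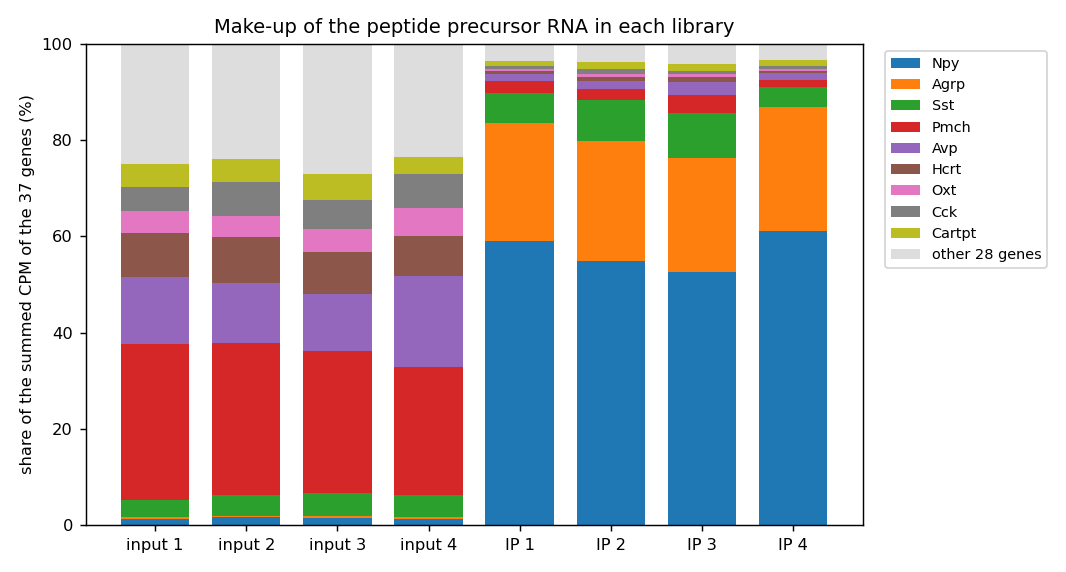
Share (%) of the summed CPM of the 37 precursor genes held by each of the leading genes in each of the 8 libraries, with 28 genes pooled as other. Agrp and Npy take 76.3% to 86.9% of the sum in IP and under 1.9% in input.

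Per kb of transcript, the scale on which levels of different genes can be compared, the order of the genes changed as well. In input Pmch led at 393 ± 36.4 CPM per kb (SD, n = 4), followed by Avp at 247 ± 72.8, Hcrt at 150 ± 12.1, Oxt at 89.4 ± 17.9 and Cck at 77.8 ± 14.9. Oxt and Cck differed by less than their spread. Npy stood in place 9 at 24.3 ± 1.54 CPM per kb and Agrp in place 21 at 4.57 ± 1.01 of 36 genes with a length (Kiss1 had none in the annotation used). In IP Npy led at 3433 ± 794 CPM per kb, before Agrp at 1148 ± 232 and Sst at 319 ± 69.0. Pmch at 108 ± 25.1 and Avp at 106 ± 21.1 were next and could not be ordered, and Hcrt (40.4 ± 9.18), Cartpt (35.6 ± 7.86), Oxt (33.2 ± 3.68) and Cck (29.4 ± 11.3) followed within overlapping spreads. Pomc was in place 13 of input (19.0 ± 2.73 CPM per kb) and 12 of IP (10.0 ± 2.57).

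The 4 IP libraries differed from each other in a pattern that many precursors shared. Of the 13 genes called lower with at least 10 CPM in input, 9 were highest in IP replicate 3 and none in IP replicate 4. The matching share over all genes called lower is not given, so this count does not set the precursors apart. Among the 5 genes called higher, 4 were lowest in IP replicate 3 and highest in IP replicate 4, and Sst was the exception. Relative to the mean of the IP libraries, the median of the lower genes was 0.91, 1.05, 1.23 and 0.94 in IP replicates 1 to 4, and that of the higher genes 0.95, 1.08, 0.80 and 1.29. Of the other 4 lower genes, Pomc, Pdyn and Cck were lowest in IP replicate 3 and Trh was highest in IP replicate 2.

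Several marker lists were also highest or lowest in IP replicate 3. The astrocyte markers summed to 844, 921, 1139 and 865 CPM in IP replicates 1 to 4, the oligodendrocyte markers to 705, 812, 1036 and 855 CPM, and the markers of other hypothalamic neurons to 102, 107, 160 and 129 CPM. The non-peptide markers of AgRP neurons summed to 3050, 2985, 2605 and 3208 CPM. IP replicate 3 was thus highest for the first 3 lists and lowest for the last. The vascular (14.5 to 31.6 CPM), tanycyte and ependymal (13.5 to 17.6 CPM) and pituitary (1.76 to 10.2 CPM) markers were highest there too, while the microglia markers, at 26.0, 30.2, 29.4 and 31.5 CPM in IP replicates 1 to 4, were highest in replicate 4. Their part in the precursor levels was not tested.

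**Figure D4:**
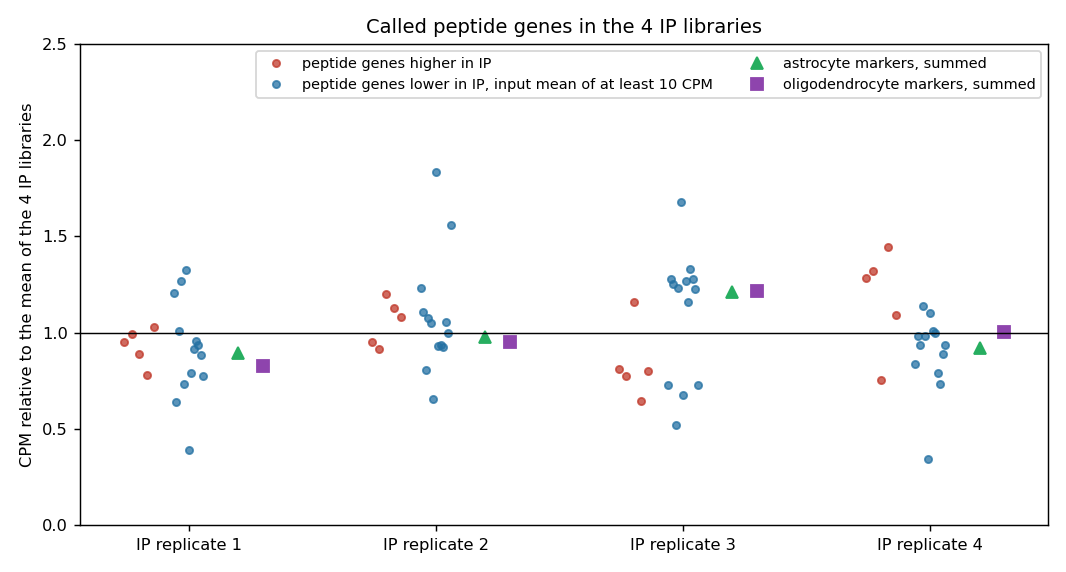
CPM of called precursor genes in each IP library relative to the gene's mean over the 4 IP libraries (ratio, linear axis), for 5 genes called higher and 13 called lower with an input mean of at least 10 CPM. The medians of the lower genes peak in replicate 3 at 1.23 and those of the higher genes in replicate 4 at 1.29.

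Among genes that process the precursors, 17 of 19 listed were tested. Of these 8 were higher in IP, 2 lower and 7 did not pass the test, with a median of 0.24, beside 24.5% higher and 20.9% lower over all tested genes. Pcsk1n, which encodes proSAAS, an inhibitor of convertase 1, rose from 154 ± 10.0 to 935 ± 85.4 CPM (SD, n = 4; log2 2.60 ± 0.08 SE, adjusted p = 2.67e-09). Pcsk1, that convertase, was at 13.0 ± 1.01 and 29.1 ± 2.41 CPM (1.16 ± 0.11, adjusted p = 8.04e-06), and Pam, the amidating enzyme, at 84.4 ± 8.32 and 150 ± 16.9 CPM (0.83 ± 0.10, adjusted p = 3.48e-05). Cpe, the carboxypeptidase that trims basic residues, was lower, at 653 ± 56.1 and 390 ± 18.7 CPM (-0.74 ± 0.07, adjusted p = 8.62e-06), as was the related Cpd (-0.60 ± 0.14, adjusted p = 0.00419). The number lower was 1 with GC and length offsets and 5 without IP replicate 3, with Furin, Pcsk2 and Pcsk5 added.

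Of 7 genes listed as granins, the proteins that fill dense-core vesicles, 4 were higher and none lower, beside the same 24.5% and 20.9% over all genes. Their median was 0.30. The list includes Vgf, which is also among the precursors above, and Gnas, counted as a whole gene. Scg2 (0.71 ± 0.08, adjusted p = 3.89e-05), Gnas (0.59 ± 0.07, adjusted p = 4.48e-05), whose locus also encodes a granin-like protein, and Scg5 (0.63 ± 0.14, adjusted p = 0.00393), a chaperone of convertase 2, led. Of 28 genes of dense-core vesicle release, 12 were higher and 10 lower, with a median of 0.04, again beside 24.5% and 20.9%. The higher ones included Ptprn, a membrane protein of these vesicles (1.58 ± 0.10, adjusted p = 2.45e-07), Rab27a, a small GTPase of vesicle docking (1.85 ± 0.12, adjusted p = 3.91e-07), and Vamp2, a vesicle SNARE (0.97 ± 0.07, adjusted p = 4.92e-07). The lower ones included Pclo, an active-zone scaffold (-1.35 ± 0.08, adjusted p = 1.62e-07), Snap25, a plasma-membrane SNARE (-1.01 ± 0.07, adjusted p = 5.96e-07), and Syt9, a calcium sensor (-1.23 ± 0.13, adjusted p = 1.25e-05). With GC and length offsets 15 of the release genes were higher and 5 lower.

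Secreted peptides outside the 37 genes made up the last list. Of 57 listed, 34 were tested, 7 were higher and 11 lower, with a median of -1.07, beside 24.5% higher and 20.9% lower over all tested genes, and 11 of the 57 had no count in any IP library. Fam19a5 (0.53 ± 0.08, adjusted p = 0.00031), Fam19a1 (0.79 ± 0.13, adjusted p = 0.000435), both of a family of small secreted brain proteins, and Apela (3.77 ± 0.83, adjusted p = 0.00328), a ligand of the apelin receptor, were higher. Apela was scarce, at 0.137 ± 0.117 CPM in input and 1.87 ± 1.21 CPM in IP. Agt, the angiotensinogen made by astrocytes (-1.91 ± 0.19, adjusted p = 1.06e-05), Fam19a2 (-1.83 ± 0.19, adjusted p = 1.66e-05) and Cbln2, a synapse organizer (-1.72 ± 0.19, adjusted p = 2.74e-05), were lower. The number higher was 4 with GC and length offsets and 3 with a filter at 1 CPM in 4 libraries, and the number lower was 17 with limma-voom.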

How the data were processed

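RNA sequencing of 4 IP and 4 input libraries was used, grouped and numbered by the sample titles. The authors deposited estimated counts per gene, not normalized, made with Salmon 0.14.1 on GRCm38.p6 per the submitters' processing notes. Between 15.3% and 19.2% of a library's values were not whole (tolerance 1e-06), and all were rounded. The authors' annotation and use of strand are not stated. Coordinates, length and GC content came from GENCODE M21, which held 98.8% of the identifiers, and promoters from RefSeq.

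Genes were filtered with filterByExpr (minimum count 10), scaled by TMM and compared by the quasi-likelihood test of edgeR 4.0.16 (R 4.3.3), no covariate, Benjamini-Hochberg adjusted over 17000 genes. SE is the log2 fold change over the root of F. The test was also run on simulated counts in which far fewer genes changed than were called here. That run does not check the TMM assumption on these data. Alternatives were RLE, upper quartile and no scaling factors, other gene filters, DESeq2 1.42.0, limma 3.58.1 (voom), a replicate block, GC and length offsets (natural splines with 5 degrees of freedom) and each library left out.

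The precursor genes, marker lists and pathway lists were chosen with earlier results of these data known. All 37 precursors could be named, from each pathway list up to 3 genes per direction with the smallest p among those called, and genes that overlap a named precursor. Values in every library are given for precursors called or with a mean of at least 10 CPM in a fraction, and for Pnoc, chosen after its values were seen. Each library comes from 3 pooled mice, and whether an IP and an input share a pool is not stated. Depth limits precision for genes under about 1 CPM.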

Additional observations from a re-analysis of the deposited data

Results flagged for a closer look

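In 5 of 68 groups of 4 libraries checked, 1 library lay far from the other 3 by Dixon's 95% criterion on the gap over the range, where chance flags about 1 in 20 groups. Cartpt was lowest in input replicate 4, at 36.5 CPM against 46.9 to 47.7 CPM in the others. Vip was highest in the same library, at 2.47 CPM against 1.13 to 1.33 CPM. Hcrt was lowest in input replicate 3, at 77.1 CPM against 90.9 to 91.8 CPM. In IP replicate 3, Npvf was highest at 2.80 CPM against 0.407 to 0.754 CPM, and Nms was at 0.231 CPM while the other 3 IP libraries had no count.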

How the results depend on the processing

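Agrp, Npy, Sst and Nucb2 were called higher under every alternative run, and Nmb under all but the 2 fits with GC and length offsets. With 1 library left out, 5 precursors were higher in each fit, 15 to 20 were lower, 10 to 12 were above glial RNA and 0 to 1 below. Over all genes 3661 to 4508 were then higher and 2862 to 4230 lower. The same fits gave 2 to 5 lower processing enzymes, 0 to 1 lower granins, 8 to 10 lower release genes, and 5 to 8 higher and 8 to 11 lower other secreted peptides. The median of all genes moved by -0.13 with upper quartile factors, 0.10 with library totals and -0.25 without a filter, which tested 28376 genes.

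Lower processing enzymes numbered 4 with voom quality weights, and 1 with offsets, with or without the block. Lower release genes numbered 5 and higher ones 15 with offsets in both fits. Higher other secreted peptides numbered 3 at 1 CPM, 4 with offsets and 3 with offsets and the block, and lower ones 17 with voom. The input share of Agrp and Npy was 2.29% per kb. Same-numbered IP and input libraries deviated together weakly (r = 0.0484 to 0.0836), and each correlated best with its own number. Differently numbered ones were at -0.0379 to -0.00165. No label states that same-numbered libraries share a homogenate, so the main fit did not treat them as pairs. These correlations do not show that they are unpaired. In the fit with the replicate block 1 precursor, Trh, was below glial RNA (-0.89, adjusted p = 0.0470), Nms was called lower in IP (adjusted p = 0.0342), and the signs against glial RNA turned for Tac1 (0.0055), Gal (-0.085), Prok2 (-0.21), Ucn (-0.14) and Ucn3 (-0.056). With the block and offsets Nmb was at 0.82 (adjusted p = 0.183), Gal at -2.32 and Cck at -2.02.

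Cartpt was 0.078 with library totals, -0.39 with GC and length offsets, and -0.16 to 0.094 with 1 library left out. Against glial RNA Tac1 was 0.015 with oligodendrocyte markers alone and Penk -0.026 with astrocyte markers alone. With 1 library left out, the difference from glial RNA ranged from -0.11 to 0.13 for Tac1, -0.37 to 0.14 for Pdyn, -0.053 to 0.094 for Penk, -0.18 to 0.41 for Gal, -0.020 to 0.49 for Cck, -0.95 to 0.14 for Npvf, -0.75 to 1.33 for Prok2, -0.94 to 1.05 for Ucn and -0.59 to 1.33 for Ucn3. The cause of these changes was not tested. By median transcript length 12 places changed in input and 20 in IP, by at most 3. The offsets covered 99.4% of tested genes. The Crh call could not be run at 1 CPM, where that gene is not tested.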
